A study of Mus musculus with 24 samples.

Results

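The genes described here encode parts of the contractile apparatus of myofibroblasts: Acta2, Actn1, Tpm1, Tpm2, Tnnt2, Myl9, Tagln, Cnn1 and Cald1. They were taken by gene symbol, through the Ensembl mouse gene identifier on each line, and are 9 of the 16604 genes used from the table. EMS404 is a mouse hepatic stellate cell line, immortalized with SV40, derived from C57Bl6 liver and expressing human TLR4, and every group shares this 1 line and genotype. The groups, with 3 biological samples each, were SB431542+TGFb, SR9011+TGFb, CLK8+TGFb, SB431542, SR9011, CLK8, TGFb and vehicle. SB431542 inhibits the TGFb receptor, SR9011 is an agonist of the clock repressor REV-ERBalpha, and CLK8 disrupts the dimer of CLOCK and BMAL1. Cells had a compound for 24 h and then, in the TGFb groups, 10 ng/mL TGFb with it for a further 24 h. The group labelled as having no treatment has libraries named for DMSO and is called vehicle here. The labels give neither the compound doses nor what the groups without TGFb received in the second 24 h, so TGFb and time in culture cannot be told apart.

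Stellate cells that turn into myofibroblasts build actin stress fibres and pull on the scar matrix, and TGFb is the classic signal for this change. In a stress fibre, actin filaments are wrapped by tropomyosin and caldesmon, cross-linked by alpha-actinin and drawn together by non-muscle myosin, whose light chains switch the motor on when they are phosphorylated. Many of these genes are known in smooth muscle as targets of serum response factor, which binds the CArG box, and of TEAD factors, which bind the MCAT element.

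All 9 genes are protein coding, and positions are those of GRCm38 (mm10) in the GENCODE M21 annotation. Acta2 (ENSMUSG00000035783, chr19:34241090-34255590, minus strand) encodes smooth muscle alpha-actin, the standard marker of the myofibroblast. Actn1 (ENSMUSG00000015143, chr12:80167547-80260371, minus) encodes alpha-actinin, which bundles actin filaments. Tpm1 (ENSMUSG00000032366, chr9:67022590-67049406, minus) and Tpm2 (ENSMUSG00000028464, chr4:43514711-43523765, minus) encode tropomyosins, which lie along the filament. Tnnt2 (ENSMUSG00000026414, chr1:135836354-135852260, plus) encodes cardiac troponin T, which ties the troponin complex to tropomyosin in heart muscle. Myl9 (ENSMUSG00000067818, chr2:156775420-156781658, plus) encodes a regulatory light chain of myosin. Tagln (ENSMUSG00000032085, chr9:45929619-45936058, minus), Cnn1 (ENSMUSG00000001349, chr9:22099216-22109630, plus) and Cald1 (ENSMUSG00000029761, chr6:34598500-34775473, plus) encode transgelin, calponin and caldesmon, all of them actin-binding proteins. The table gives 1 value per gene, so the muscle and non-muscle transcripts of Tpm1 (21 annotated transcripts), Cald1 (18) and Tnnt2 (15) were not separated. Tagln shares 108 exonic bases with Pcsk7 on the opposite strand and 1241 with the antisense gene Gm48529. The labels do not say whether the libraries kept the strand. Pcsk7 reached 12.7 FPKM (fragments mapped to a gene, scaled to its length and to the library's depth) in any library, and Gm48529 was not analysed here.

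The promoters of 8 of the 9 genes were matched in RefSeq on GRCm38.p6, as 10 windows of 250 bases before and 50 bases after the start. Tagln was the gene without a match. The 5 below are shown because each holds a muscle-type motif, printed in capitals, with the sequence reading 5′ to 3′ along the gene. Windows without such a motif, that of Cnn1 among them, are not printed. Both strands were searched, and the motifs in the 5 windows do not overlap each other. The MCAT core GGAATG lay in 4 of the 10 windows, each of a different gene, against 14.7% of 32851 mouse promoter windows. It began 146 bases before the start of Acta2 (chr19:34255324-34255623, minus strand), 56 before that of Tpm1 (chr9:67049164-67049463, minus), 153 before that of Cald1 (chr6:34598254-34598553, plus) and 27 before that of Tnnt2 (chr1:135836084-135836383, plus). In Tnnt2 the match is on the opposite strand, so the capitals read as its reverse complement. The CArG box was searched only in its strict form, CCWWWWWWGG with W being A or T. That form lay 161 bases before the start of Myl9 (chr2:156775214-156775513, plus) and in 1.63% of all windows. Looser forms were not searched or marked. The Acta2 window holds ccctatatgg and ccttgtttgg, which each differ from the strict form in a single letter.
Acta2: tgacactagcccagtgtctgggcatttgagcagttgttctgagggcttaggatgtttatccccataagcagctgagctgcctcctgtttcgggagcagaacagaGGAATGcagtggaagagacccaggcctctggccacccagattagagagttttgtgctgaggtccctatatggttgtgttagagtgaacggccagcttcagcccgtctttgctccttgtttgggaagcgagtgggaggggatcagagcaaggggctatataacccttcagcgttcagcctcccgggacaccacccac
Tpm1: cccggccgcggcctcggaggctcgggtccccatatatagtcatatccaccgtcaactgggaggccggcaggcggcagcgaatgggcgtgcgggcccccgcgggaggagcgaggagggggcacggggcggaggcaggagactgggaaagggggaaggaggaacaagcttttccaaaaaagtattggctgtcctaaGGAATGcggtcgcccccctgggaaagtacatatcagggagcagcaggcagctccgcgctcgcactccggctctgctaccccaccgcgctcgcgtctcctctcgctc
Tnnt2: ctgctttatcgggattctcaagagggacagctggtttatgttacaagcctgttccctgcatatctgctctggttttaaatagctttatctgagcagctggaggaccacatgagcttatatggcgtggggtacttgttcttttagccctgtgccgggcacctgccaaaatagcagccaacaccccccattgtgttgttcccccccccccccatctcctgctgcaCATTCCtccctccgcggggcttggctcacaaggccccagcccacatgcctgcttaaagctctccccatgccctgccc
Cald1: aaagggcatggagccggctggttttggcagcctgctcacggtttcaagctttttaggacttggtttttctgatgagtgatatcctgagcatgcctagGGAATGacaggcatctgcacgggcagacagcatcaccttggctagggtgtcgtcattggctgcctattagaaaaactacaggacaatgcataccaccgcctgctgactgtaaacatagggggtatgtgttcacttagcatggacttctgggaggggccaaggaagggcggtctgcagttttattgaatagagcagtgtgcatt
Myl9: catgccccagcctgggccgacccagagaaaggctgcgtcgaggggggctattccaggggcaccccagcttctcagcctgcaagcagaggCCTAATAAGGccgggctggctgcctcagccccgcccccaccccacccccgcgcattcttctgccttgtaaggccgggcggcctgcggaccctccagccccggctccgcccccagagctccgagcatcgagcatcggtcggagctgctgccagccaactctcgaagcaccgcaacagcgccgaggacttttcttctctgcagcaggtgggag
The E-box CACGTG, the letters that CLOCK and BMAL1 bind, was in 7.15% of all windows and in none of the windows of the 8 genes. The SMAD palindrome GTCTAGAC was in 0.213% of all windows and likewise in none of theirs, and the AP-1 letters TGANTCA, in 7.81% of windows, were found once, in a second Cald1 window. A match describes the letters and is not a binding site, and no match says only that the letters are not in the window.

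The identity of the cells was read from lists of marker genes. Of 11 stellate cell markers, 10 were in the table and 5 reached 1 FPKM in any library, while Reln, Colec10, Hgf, Des and Ngfr stayed under 1 FPKM in all 24. Of 6 portal fibroblast markers 4 reached 1 FPKM, and Thy1 and Entpd2 did not. That list summed to 534 to 559 FPKM in vehicle cells, against 189 to 197 FPKM for the stellate cell list. It summed to 673 to 729 FPKM in TGFb cells and 391 to 435 FPKM in SR9011 cells. Its member Cd34 was at 146 FPKM in TGFb cells, 222 FPKM in vehicle cells and 170 FPKM in SR9011 cells. The part of this list in the results was not tested. Myocd, the defining cofactor of smooth muscle, was listed at 0 in all libraries, and Myh11, the smooth muscle myosin heavy chain, did not pass 0.08 FPKM. The number of reads behind each library is unknown. A rough estimate from the smallest steps of 16 low genes placed the relative depth of the 24 libraries between 0.92 and 1.06. In bulk RNA, fewer cells of a type and less RNA per cell cannot be told apart. The 3 SR9011 libraries spread most around their group mean, with mean squared deviations of 0.00925 to 0.0192 on the log2 scale, against 0.00346 to 0.00891 in the other 21.

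In vehicle cells the levels per length, in FPKM, spanned a wide range. Tpm1 was the highest of the 9, at 376 ± 15.6 FPKM (SD, n = 3), the 210th of 16604 genes. Cald1, Acta2, Tpm2, Actn1, Tagln and Myl9 followed at 159, 99.9, 71.9, 64.5, 52.6 and 31.7 FPKM. Cnn1 and Tnnt2 were low, at 2.24 ± 0.176 and 0.697 ± 0.0451 FPKM. Of the 9 genes, 7 were at 1 FPKM or more in all 24 libraries, Cnn1 in 12 and Tnnt2 in 14. The span between the highest and the lowest group mean differed as much: 58.1-fold for Tnnt2, 12.2-fold for Cnn1, 10.8-fold for Tagln and 6.11-fold for Acta2, but 1.86-fold for Actn1 and 1.36-fold for Tpm2.

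**Figure D1:**
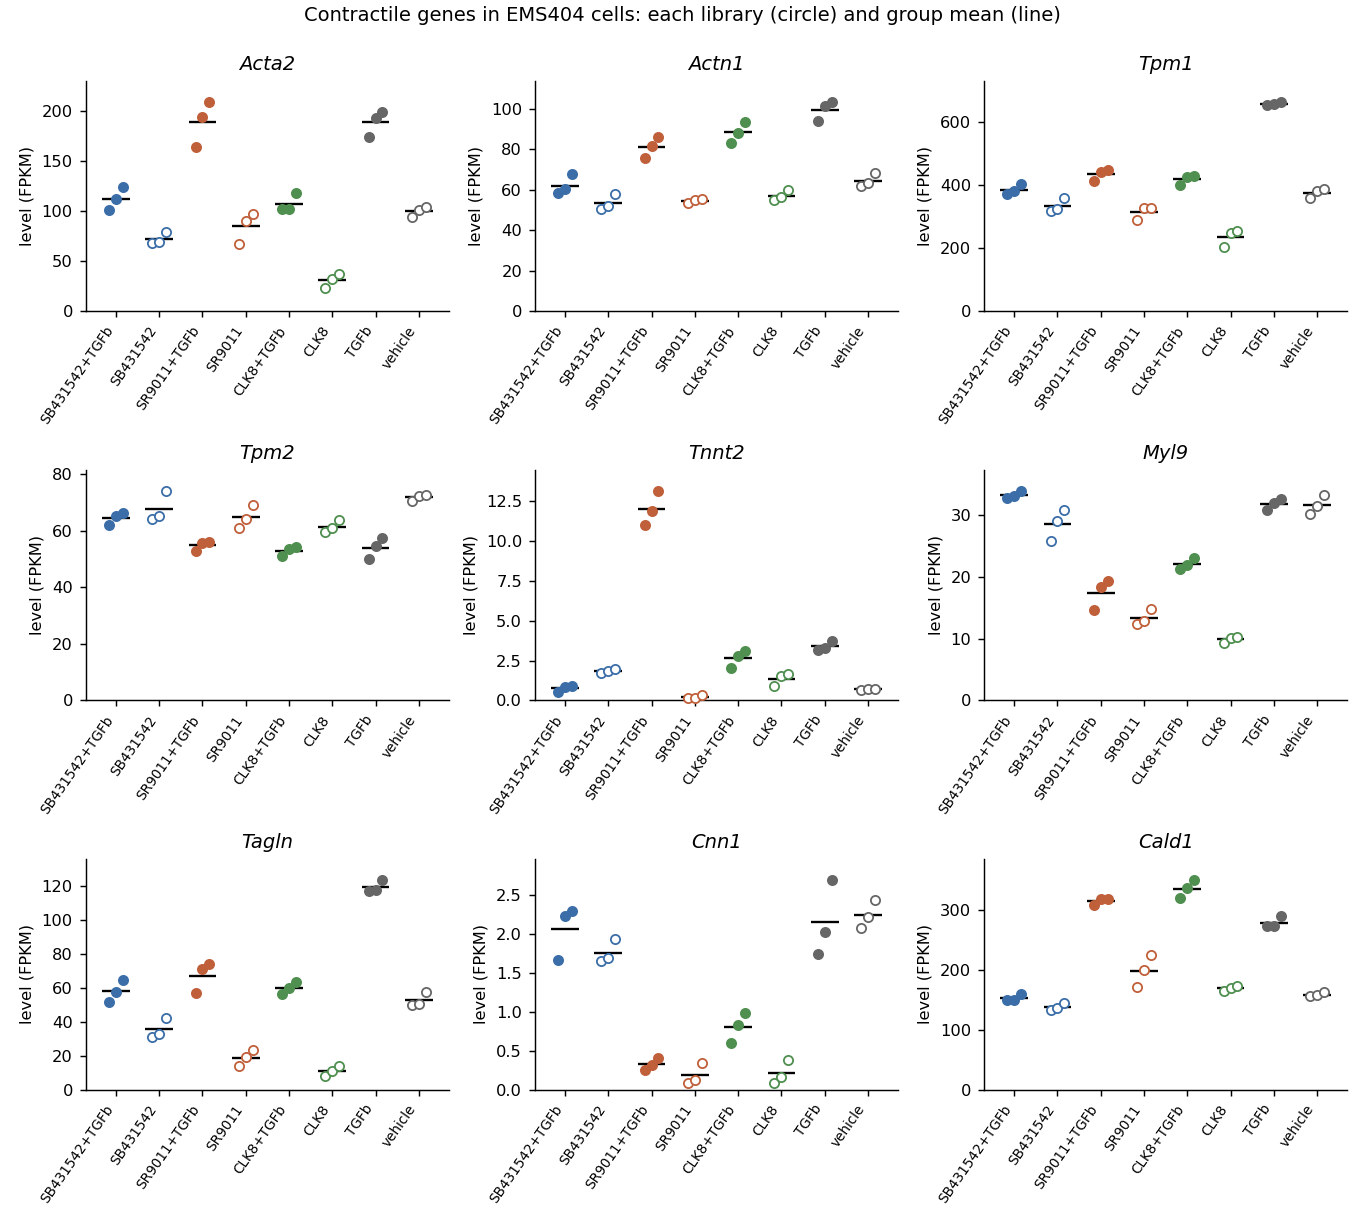
FPKM of the 9 genes in each of the 24 libraries, 1 panel per gene, with the 8 groups along the x axis; points are libraries and bars mark the group mean. Tnnt2 stands at 11.0 to 13.1 FPKM in SR9011+TGFb cells and under 4 FPKM in every other library, and Cnn1 and Myl9 lie lowest in the SR9011 and CLK8 groups.

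TGFb without a compound raised 6 of the 9 genes, lowered 1 and left 2 uncalled. Troponin T, transgelin, alpha-actin, caldesmon, Tpm1 and alpha-actinin rose, Tpm2 fell, and the light chain Myl9 and calponin Cnn1 did not pass the test. Differences were tested with limma on log2(FPKM + 1) over 11297 genes, and a gene is called at an adjusted p under 0.05. The background was high: 54.9% of all genes tested were called, 20.5% higher and 34.4% lower. The split moved with the scaling: when values were rescaled to one total per library (TPM) 26.6% were higher and 25.5% lower, and after quantile normalization 27.0% and 27.5%. The median log2 difference of the 9 was 0.80, against -0.05 over all genes.

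Acta2 had 193, 199 and 174 FPKM in TGFb cells, against 102, 104 and 93.9 FPKM in vehicle cells. Every TGFb library was above every vehicle library, and the log2 difference was 0.91 (SE 0.14, adjusted p = 2.34e-05). Actn1 had 101, 93.9 and 103 FPKM in TGFb cells, against 68.0, 63.4 and 61.9 FPKM in vehicle cells, again without overlap, with a log2 difference of 0.62 (SE 0.06, adjusted p = 1.82e-08). Both encode parts of the stress fibre core. Tpm1 had 662, 651 and 655 FPKM in TGFb cells, against 388, 381 and 358 FPKM in vehicle cells, a log2 difference of 0.80 (SE 0.07, adjusted p = 1.19e-09). Tpm2, its paralog, went the other way, with 50.1, 54.7 and 57.3 FPKM in TGFb cells, against 70.5, 72.5 and 72.7 FPKM in vehicle cells. All 3 TGFb libraries were below all 3 vehicle libraries, and the log2 difference was -0.41 (SE 0.06, adjusted p = 1.79e-06).

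Cardiac troponin T gave the largest log2 difference of the 9 in this comparison. Tnnt2 had 3.18, 3.75 and 3.31 FPKM in TGFb cells, against 0.65, 0.74 and 0.70 FPKM in vehicle cells. The libraries did not overlap, and the log2 difference was 1.38 (SE 0.12, adjusted p = 9.34e-10). This scale understates the change of low genes, and with a pseudocount of 0.1 in place of 1 the same difference was 2.14. Tagln, an early marker of the smooth muscle programme, had 123, 117 and 118 FPKM in TGFb cells, against 57.5, 50.6 and 49.6 FPKM in vehicle cells. The log2 difference was 1.17 (SE 0.17, adjusted p = 8.40e-06), with no overlap. Cald1 had 291, 274 and 275 FPKM in TGFb cells, against 163, 156 and 158 FPKM in vehicle cells, also without overlap, and the log2 difference was 0.81 (SE 0.06, adjusted p = 2.79e-10).

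Myl9 had 30.8, 32.7 and 32.1 FPKM in TGFb cells, against 31.5, 33.4 and 30.2 FPKM in vehicle cells. The ranges overlapped, and the log2 difference of 0.01 had a 95% interval of -0.15 to 0.17 (adjusted p = 0.942). Cnn1 had 1.74, 2.69 and 2.02 FPKM in TGFb cells, against 2.43, 2.08 and 2.22 FPKM in vehicle cells. These too overlapped, with a log2 difference of -0.05 and an interval of -0.28 to 0.18 (adjusted p = 0.722). No setting or left-out library changed the call of any of the 9 genes in this comparison, although Cnn1 was not tested at a filter of 5 FPKM. Tnnt2 passed that filter only through its SR9011+TGFb libraries. Among marker lists, the summed level of the vascular smooth muscle and pericyte list was 20.0 to 20.8 FPKM in TGFb cells, against 15.9 to 16.1 FPKM in vehicle cells. That of the cholangiocyte list was 150 to 187 FPKM in TGFb cells, against 33.7 to 36.3 FPKM in vehicle cells. Of its 5 genes Spp1 carried the sum, at 161 FPKM in TGFb cells and 25.8 FPKM in vehicle cells, while Krt7 was at 5.44 and Krt19 at 1.32 FPKM in TGFb cells, against 6.65 and 2.14 FPKM in vehicle cells, and Epcam and Cftr stayed under 1 FPKM. The mesothelial list summed to 206 to 216 FPKM in TGFb cells, against 376 to 394 FPKM in vehicle cells, mostly through Upk3b, at 87.7 FPKM in TGFb cells and 252 FPKM in vehicle cells. Its members Msln, Lrrn4 and Krt8 had higher means with TGFb, at 7.65, 36.3 and 1.51 FPKM in TGFb cells, against 5.65, 34.5 and 0.30 FPKM in vehicle cells. The stellate cell list summed to 146 to 148 FPKM in TGFb cells, against 189 to 197 FPKM in vehicle cells. The part of these markers in the result was not tested.

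The receptor inhibitor SB431542 was compared with TGFb to see how much of this depended on the receptor. With it, 6 of the 9 genes were lower than in TGFb cells and 1 was higher, where 59.7% of all genes were called, 38.3% higher and 21.4% lower (29.5% and 30.4% after quantile normalization). The median log2 difference of the 9 was -0.75, against 0.07 over all genes. Tnnt2 had 0.50, 0.87 and 0.90 FPKM in SB431542+TGFb cells, against 3.18, 3.75 and 3.31 FPKM in TGFb cells. Cald1 had 159, 150 and 150 FPKM in SB431542+TGFb cells, against 291, 274 and 275 FPKM in TGFb cells. Neither gene's libraries overlapped, and the log2 differences were -1.34 for Tnnt2 (SE 0.12, adjusted p = 1.23e-09) and -0.87 for Cald1 (SE 0.06, adjusted p = 6.77e-11). Acta2 fell to 124, 112 and 101 FPKM in SB431542+TGFb cells, against 193, 199 and 174 FPKM in TGFb cells, a log2 difference of -0.75 (SE 0.14, adjusted p = 0.000174). Tagln, Tpm1 and Actn1 were lower by log2 differences of -1.04, -0.77 and -0.68, and Tpm2 was higher by 0.25. Marker lists moved as well: the mesothelial list summed to 398 to 458 FPKM in SB431542+TGFb cells, against 206 to 216 FPKM in TGFb cells, and the stellate cell list to 192 to 203 FPKM in SB431542+TGFb cells, against 146 to 148 FPKM in TGFb cells. The cholangiocyte list summed to 29.87 to 31.98 FPKM in SB431542+TGFb cells, against 150 to 187 FPKM in TGFb cells, and the vascular smooth muscle and pericyte list to 12.0 to 13.9 FPKM in SB431542+TGFb cells, against 20.0 to 20.8 FPKM in TGFb cells. Their part in the result was not tested.

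Set against vehicle, SB431542+TGFb cells had 0 of 9 genes called by limma, where 3.50% of all genes were called, 2.88% higher and 0.62% lower (2.03% and 0.903% after quantile normalization). Of the 9, 1 gene, Tpm2, had an unadjusted p under 0.05, and it was called when these 2 groups were fitted alone (adjusted p = 0.0474). The widest interval was that of Tagln, -0.22 to 0.49 on the log2 scale, so a change of that size cannot be told from none.

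SB431542 without TGFb lowered 4 of the 9 genes and raised 1 against vehicle, where 16.9% of all genes were called, 11.9% higher and 5.05% lower (8.2% and 7.67% after quantile normalization). Acta2 had 79.2, 67.7 and 69.2 FPKM in SB431542 cells, against 102, 104 and 93.9 FPKM in vehicle cells, a log2 difference of -0.47 (SE 0.14, adjusted p = 0.0301). Tagln had 42.3, 31.2 and 32.9 FPKM in SB431542 cells, against 57.5, 50.6 and 49.6 FPKM in vehicle cells, a log2 difference of -0.56 (SE 0.17, adjusted p = 0.0263). Neither pair of groups overlapped, and Actn1 and Cald1 were lower by smaller differences of -0.27 and -0.20. Tnnt2 went up: it had 1.95, 1.84 and 1.70 FPKM in SB431542 cells, against 0.65, 0.74 and 0.70 FPKM in vehicle cells, with a log2 difference of 0.74 (SE 0.12, adjusted p = 8.04e-05). The calls of Acta2, Tagln and Cald1 lay near the threshold, and most fits that left out 1 library lost them. Acta2 and Tagln were lost without vehicle sample 1 or 2 or without SB431542 sample 2 or 3 (adjusted p of 0.0863 to 0.0993 and 0.0512 to 0.106). Cald1 was lost without any of the vehicle samples or SB431542 sample 2 or 3 (0.0607 to 0.126). In those fits the log2 differences were -0.43 to -0.46 for Acta2, -0.48 to -0.59 for Tagln and -0.17 to -0.21 for Cald1. Cald1 was also lost without a filter on low genes (0.0544), in TPM (0.0976) and after quantile normalization (0.108). The number of called members was then 2 to 6.

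SR9011 without TGFb lowered 7 of the 9 genes and raised Cald1, where 69.1% of all genes were called, 40.7% higher and 28.3% lower. The falls were of unequal size, from -1.48 for Tagln to -0.15 for Tpm2 on the log2 scale. Tagln had 19.0, 13.6 and 23.2 FPKM in SR9011 cells, against 57.5, 50.6 and 49.6 FPKM in vehicle cells, a log2 difference of -1.48 (SE 0.17, adjusted p = 2.20e-07). Cnn1 had 0.34, 0.12 and 0.09 FPKM in SR9011 cells, against 2.43, 2.08 and 2.22 FPKM in vehicle cells, a log2 difference of -1.46 (SE 0.11, adjusted p = 7.67e-11). With a pseudocount of 0.1 the Cnn1 difference was -3.15. Myl9 had 14.8, 12.3 and 12.9 FPKM in SR9011 cells, against 31.5, 33.4 and 30.2 FPKM in vehicle cells, a log2 difference of -1.19 (SE 0.08, adjusted p = 4.31e-12). No SR9011 library reached the vehicle range in any of these 3 genes. Tnnt2 had 0.34, 0.15 and 0.13 FPKM in SR9011 cells, against 0.65, 0.74 and 0.70 FPKM in vehicle cells, a log2 difference of -0.50 (SE 0.12, adjusted p = 0.000693).

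Tpm1, Actn1 and Tpm2 were lower in SR9011 cells by log2 differences of -0.26, -0.23 and -0.15, and the call of Tpm2 was lost without vehicle sample 2 or 3 or SR9011 sample 2 or 3 (adjusted p of 0.0514 to 0.119) and with these groups fitted alone (0.0546). Cald1 had 171, 200 and 225 FPKM in SR9011 cells, against 163, 156 and 158 FPKM in vehicle cells. Its 3 SR9011 libraries lay further apart than those of any other group and were all above vehicle, with a log2 difference of 0.31 (SE 0.06, adjusted p = 0.000167). Acta2 had 90.4, 67.6 and 97.6 FPKM in SR9011 cells, against 102, 104 and 93.9 FPKM in vehicle cells. Here the ranges overlapped and the log2 difference of -0.24 had an interval of -0.55 to 0.06 (adjusted p = 0.142). In TPM limma called Acta2 lower (adjusted p = 0.0496). The mesothelial list summed to 90.9 to 135 FPKM in SR9011 cells, against 376 to 394 FPKM in vehicle cells, although its member Msln went the other way, at 16.8 FPKM in SR9011 cells and 5.65 FPKM in vehicle cells. The stellate cell list summed to 90.2 to 98.6 FPKM in SR9011 cells, against 189 to 197 FPKM in vehicle cells. Sums of the vascular smooth muscle and pericyte list were 9.12 to 10.0 FPKM in SR9011 cells and 15.9 to 16.1 FPKM in vehicle cells. The cholangiocyte list summed to 5.7 to 5.98 FPKM in SR9011 cells, against 33.7 to 36.3 FPKM in vehicle cells. The part of these lists in these results was not tested.

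CLK8 without TGFb also lowered 7 of the 9 genes, and raised Tnnt2, where 43.9% of all genes were called, 30.3% higher and 13.6% lower (20.9% and 19.4% after quantile normalization). The median log2 difference of the 9 was -0.68, against 0.07 over all genes. Acta2 had 37.5, 22.9 and 32.4 FPKM in CLK8 cells, against 102, 104 and 93.9 FPKM in vehicle cells, a log2 difference of -1.69 (SE 0.14, adjusted p = 1.18e-08). These were the lowest Acta2 values of the 24 libraries. Tagln had 13.8, 8.15 and 11.1 FPKM in CLK8 cells, against 57.5, 50.6 and 49.6 FPKM in vehicle cells, a log2 difference of -2.18 (SE 0.17, adjusted p = 3.92e-09). Myl9 had 10.3, 9.31 and 10.1 FPKM in CLK8 cells, against 31.5, 33.4 and 30.2 FPKM in vehicle cells, a log2 difference of -1.58 (SE 0.08, adjusted p = 4.52e-13). Cnn1 had 0.09, 0.38 and 0.16 FPKM in CLK8 cells, against 2.43, 2.08 and 2.22 FPKM in vehicle cells, a log2 difference of -1.43 (SE 0.11, adjusted p = 6.50e-10). In none of these 4 genes did the groups overlap.

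Tpm1 had 247, 203 and 254 FPKM in CLK8 cells, against 388, 381 and 358 FPKM in vehicle cells, a log2 difference of -0.68 (SE 0.07, adjusted p = 3.45e-08). Tpm2 and Actn1 were lower by -0.23 and -0.18, and the call of Actn1 was lost without vehicle sample 1 or CLK8 sample 2 or 3 (adjusted p of 0.0682 to 0.126). Tnnt2 had 0.91, 1.53 and 1.68 FPKM in CLK8 cells, against 0.65, 0.74 and 0.70 FPKM in vehicle cells, a log2 difference of 0.47 (SE 0.12, adjusted p = 0.00239). Caldesmon was the gene left uncalled, at 170 ± 4.13 FPKM in CLK8 cells and 159 ± 3.60 FPKM in vehicle cells (SD, n = 3 each), with an interval of -0.04 to 0.23. The mesothelial list summed to 115 to 137 FPKM in CLK8 cells, against 376 to 394 FPKM in vehicle cells, although Msln was at 10.2 FPKM in CLK8 cells and 5.65 FPKM in vehicle cells. Sums of the vascular smooth muscle and pericyte list were 12.9 to 13.7 FPKM in CLK8 cells and 15.9 to 16.1 FPKM in vehicle cells. The cholangiocyte list summed to 13.8 to 14.2 FPKM in CLK8 cells, against 33.7 to 36.3 FPKM in vehicle cells. The stellate cell list was higher, at 206 to 218 FPKM in CLK8 cells, against 189 to 197 FPKM in vehicle cells. The part of these lists in these results was not tested.

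With TGFb present, SR9011 lowered 5 of the 9 genes and raised 2 relative to TGFb, where 60.8% of all genes were called, 36.8% higher and 24.0% lower (27.2% and 32.3% in TPM, 30.0% and 31.7% after quantile normalization). Tnnt2 rose to 11.9, 11.0 and 13.1 FPKM in SR9011+TGFb cells, against 3.18, 3.75 and 3.31 FPKM in TGFb cells. The 3 SR9011+TGFb libraries were above all other libraries of the study, and the log2 difference was 1.56 (SE 0.12, adjusted p = 8.31e-11). Acta2 had 209, 164 and 194 FPKM in SR9011+TGFb cells, against 193, 199 and 174 FPKM in TGFb cells. The ranges overlapped, and the log2 difference of -0.004 had an interval of -0.31 to 0.30 (adjusted p = 0.986). Tagln, by contrast, had 73.9, 56.8 and 70.9 FPKM in SR9011+TGFb cells, against 123, 117 and 118 FPKM in TGFb cells, a log2 difference of -0.83 (SE 0.17, adjusted p = 0.000295). Cnn1 had 0.41, 0.31 and 0.25 FPKM in SR9011+TGFb cells, against 1.74, 2.69 and 2.02 FPKM in TGFb cells, a log2 difference of -1.24 (SE 0.11, adjusted p = 1.88e-09). Myl9, Tpm1 and Actn1 were lower by -0.84, -0.60 and -0.29, and none of the 5 lowered genes overlapped between the groups. Cald1 was higher by 0.17 (adjusted p = 0.0231), a call lost without TGFb sample 2 or 3 or SR9011+TGFb sample 1 or 3 (adjusted p of 0.0587 to 0.07) and when values were rescaled to TPM (0.353). The mesothelial list summed to 103 to 126 FPKM in SR9011+TGFb cells, against 206 to 216 FPKM in TGFb cells, although Msln was at 29.3 FPKM in SR9011+TGFb cells and 7.65 FPKM in TGFb cells. The stellate cell list summed to 106 to 119 FPKM in SR9011+TGFb cells, against 146 to 148 FPKM in TGFb cells. The cholangiocyte list summed to 23.3 to 31.5 FPKM in SR9011+TGFb cells, against 150 to 187 FPKM in TGFb cells. Sums of the vascular smooth muscle and pericyte list were 15.21 to 17.25 FPKM in SR9011+TGFb cells and 19.98 to 20.75 FPKM in TGFb cells. Their part in these results was not tested.

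CLK8 with TGFb lowered 6 of the 9 genes and raised 1 relative to TGFb, where 41.1% of all genes were called, 27.7% higher and 13.3% lower (19.9% and 20.2% after quantile normalization). Acta2 had 118, 102 and 103 FPKM in CLK8+TGFb cells, against 193, 199 and 174 FPKM in TGFb cells, a log2 difference of -0.81 (SE 0.14, adjusted p = 0.000172). Tagln had 63.4, 59.9 and 56.5 FPKM in CLK8+TGFb cells, against 123, 117 and 118 FPKM in TGFb cells, a log2 difference of -0.98 (SE 0.17, adjusted p = 0.00012). Neither gene overlapped between the groups. Cnn1, Tpm1 and Myl9 were lower by -0.80, -0.65 and -0.51, and Actn1 by -0.17. That last call was lost without TGFb sample 1 or 3 or CLK8+TGFb sample 2 or 3 (adjusted p of 0.0686 to 0.15), in TPM (0.108) and without a filter on low genes (0.053). Cald1 had 351, 322 and 338 FPKM in CLK8+TGFb cells, against 291, 274 and 275 FPKM in TGFb cells, a log2 difference of 0.27 (SE 0.06, adjusted p = 0.00198). These were the highest caldesmon values of the study. Tnnt2 had 2.80, 2.04 and 3.08 FPKM in CLK8+TGFb cells, against 3.18, 3.75 and 3.31 FPKM in TGFb cells. Its libraries did not overlap, but the log2 difference of -0.29 did not pass the test (interval -0.53 to -0.04, adjusted p = 0.0539). By limma Tnnt2 was called lower after quantile normalization (adjusted p = 0.0134), with these groups fitted alone (0.0374) and without CLK8+TGFb sample 3 (0.026). The mesothelial list summed to 84.7 to 101 FPKM in CLK8+TGFb cells, against 206 to 216 FPKM in TGFb cells, with Msln at 13.4 FPKM in CLK8+TGFb cells and 7.65 FPKM in TGFb cells. The cholangiocyte list summed to 81.5 to 92.8 FPKM in CLK8+TGFb cells, against 150 to 187 FPKM in TGFb cells. The stellate cell list summed to 189 to 204 FPKM in CLK8+TGFb cells, against 146 to 148 FPKM in TGFb cells. The vascular smooth muscle and pericyte list rose to 23.24 to 25.01 FPKM in CLK8+TGFb cells, against 19.98 to 20.75 FPKM in TGFb cells. Their part in these results was not tested.

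**Figure D2:**
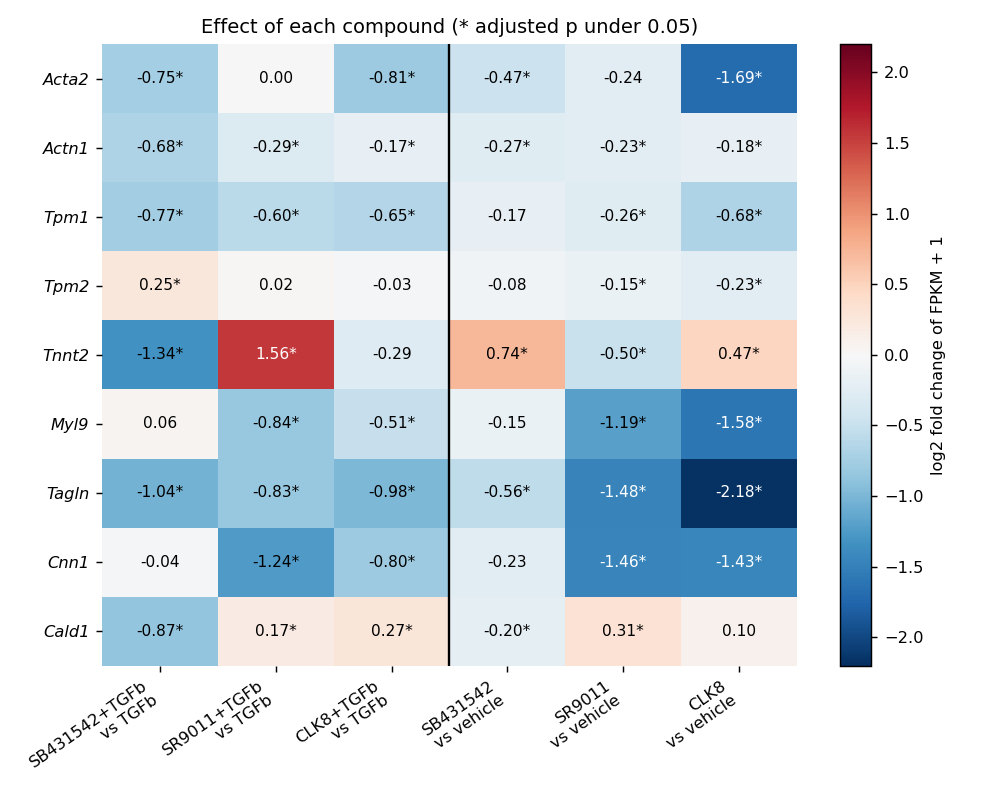
Log2 differences on the log2(FPKM + 1) scale for the 9 genes (rows), each compound with TGFb against TGFb and each compound against vehicle (columns), with the value in each cell. Cnn1, Myl9 and Tagln are lower in every SR9011 and CLK8 column, while Tnnt2 is at 1.56 for SR9011+TGFb and at -1.34 for SB431542+TGFb.

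The response to TGFb was then measured within each compound, as compound with TGFb against the compound alone. In SR9011 cells TGFb raised 7 of the 9 genes and lowered 1, where 45.3% of all genes were called, 14.3% higher and 31.0% lower (16.7% and 21.5% in TPM, 18.3% and 23.8% after quantile normalization). In CLK8 cells it raised 8 of the 9 and lowered Tpm2, a call lost in TPM (adjusted p = 0.056), where 51.9% of all genes were called, 17.3% higher and 34.6% lower (26.3% and 21.7% in TPM, 24.1% and 26.6% after quantile normalization). In SB431542 cells it raised 2 and lowered 1, where 4.36% of all genes were called, 2.01% higher and 2.35% lower (1.89% and 1.28% in TPM). The direction of Tpm2 was down in SR9011 and CLK8 cells, by -0.23 and -0.21, and Tpm2 was not called in SB431542 cells (log2 difference -0.07, interval -0.19 to 0.05).

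Troponin T changed its answer to TGFb with every compound. Tnnt2 stood at 11.9, 11.0 and 13.1 FPKM in SR9011+TGFb cells, against 0.34, 0.15 and 0.13 FPKM in SR9011 cells, a log2 difference of 3.43 (SE 0.12, adjusted p = 6.86e-17). That response exceeded the response without a compound by 2.05 (SE 0.17, adjusted p = 7.40e-09 for the interaction), where 31.9% of all genes had a called SR9011 interaction, 16.6% higher and 15.3% lower. In SB431542 cells the sign turned: Tnnt2 had 0.50, 0.87 and 0.90 FPKM in SB431542+TGFb cells, against 1.95, 1.84 and 1.70 FPKM in SB431542 cells, a log2 difference of -0.70 (SE 0.12, adjusted p = 0.000784). The interaction was -2.07 (SE 0.17, adjusted p = 1.31e-09), where 34.3% of all genes had a called SB431542 interaction, 21.5% higher and 12.8% lower (16.2% and 15.3% in TPM, 18.0% and 17.2% after quantile normalization). In CLK8 cells the response was 0.62 (SE 0.12, adjusted p = 0.000109), smaller than without a compound by an interaction of -0.76 (SE 0.17, adjusted p = 0.00467). Called CLK8 interactions were the rarest, at 7.97% of all genes, 4.58% higher and 3.39% lower (4.84% and 1.83% in TPM).

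On the log2(FPKM + 1) scale, transgelin, alpha-actin, the myosin light chain and calponin answered TGFb more in CLK8 cells than without a compound. Each of the 4 was lower in CLK8 cells than in vehicle cells. Calponin stayed under 1 FPKM in every library of both CLK8 groups, with maxima of 0.38 FPKM in CLK8 cells and 0.99 FPKM in CLK8+TGFb cells. In FPKM, mean Acta2 rose from 30.9 to 108 with CLK8 and from 99.9 to 189 without a compound. Mean Tagln rose from 11.0 to 59.9 with CLK8 and from 52.6 to 119 without, so both rises were smaller with CLK8. Tagln had 63.4, 59.9 and 56.5 FPKM in CLK8+TGFb cells, against 13.8, 8.15 and 11.1 FPKM in CLK8 cells, a log2 difference of 2.37 (SE 0.17, adjusted p = 4.41e-10) and an interaction of 1.20 (SE 0.24, adjusted p = 0.00297). Acta2 had 118, 102 and 103 FPKM in CLK8+TGFb cells, against 37.5, 22.9 and 32.4 FPKM in CLK8 cells, a log2 difference of 1.79 (SE 0.14, adjusted p = 2.18e-09) and an interaction of 0.88 (SE 0.20, adjusted p = 0.00951). Neither gene overlapped between these groups, and neither was called in CLK8+TGFb cells against vehicle, with differences of 0.19 for Tagln (interval -0.17 to 0.54) and 0.10 for Acta2 (interval -0.20 to 0.41). In that comparison 3 of the 9 genes were higher and 3 lower, where 55.3% of all genes were called, 27.9% higher and 27.4% lower (40.6% and 18.3% in TPM). With CLK8+TGFb and vehicle cells fitted alone, limma also called Tagln (adjusted p = 0.0215) and Tpm1 (0.0179) higher. Tpm1 was also called in TPM (0.00116) and after quantile normalization (0.000238).

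Myl9 had 23.1, 21.9 and 21.3 FPKM in CLK8+TGFb cells, against 10.3, 9.31 and 10.1 FPKM in CLK8 cells, a log2 difference of 1.08 (SE 0.08, adjusted p = 4.42e-11). Without a compound its difference was 0.01, and the interaction was 1.08 (SE 0.11, adjusted p = 1.09e-06). Cnn1 had 0.60, 0.99 and 0.83 FPKM in CLK8+TGFb cells, against 0.09, 0.38 and 0.16 FPKM in CLK8 cells, a log2 difference of 0.58 (SE 0.11, adjusted p = 0.000146). The libraries of both genes were apart, and the Cnn1 interaction of 0.63 (adjusted p = 0.0137) was lost without TGFb sample 1 (0.0546). Both genes were under vehicle in CLK8+TGFb cells, by log2 differences of -0.50 for Myl9 and -0.85 for Cnn1. For the other members the CLK8 interactions were not called: 0.003 for Actn1 (interval -0.18 to 0.19), 0.03 for Tpm1 (-0.17 to 0.24), 0.17 for Cald1 (-0.02 to 0.36) and 0.20 for Tpm2 (0.03 to 0.36, adjusted p = 0.139). That of Tpm2 was called by limma in TPM (adjusted p = 0.0442).

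In SR9011 cells Tagln had 73.9, 56.8 and 70.9 FPKM with TGFb, against 19.0, 13.6 and 23.2 FPKM without it, a log2 difference of 1.82 (SE 0.17, adjusted p = 3.76e-08). The interaction of 0.65 (adjusted p = 0.0452) was lost in 10 of the 12 fits that left out 1 library (0.0523 to 0.129) and without a filter on low genes (0.0627). Myl9 had 19.3, 14.7 and 18.4 FPKM in SR9011+TGFb cells, against 14.8, 12.3 and 12.9 FPKM in SR9011 cells. The ranges overlapped, although the log2 difference of 0.36 was called (SE 0.08, adjusted p = 0.000556). Its interaction of 0.36 (adjusted p = 0.0167) was lost without SR9011+TGFb sample 1 (0.062). The number of members with a called interaction was 2 to 5 in the fits that left out a library. Tpm1 rose by 0.47, less than without a compound by an interaction of -0.34 (SE 0.10, adjusted p = 0.0112). Acta2 rose by 1.15, and its interaction of 0.24 was not called (interval -0.19 to 0.67, adjusted p = 0.404). Those of Cald1 (-0.14), Tpm2 (0.17), Actn1 (-0.06) and Cnn1 (0.22) were not called either. Without SR9011 sample 1, limma called the interactions of Cald1 (-0.24, adjusted p = 0.0101) and Tpm2 (0.22, adjusted p = 0.0294). Cnn1 did not pass the test, at 0.17 with an interval of -0.07 to 0.40, and was under vehicle in SR9011+TGFb cells by -1.29. Against vehicle, SR9011+TGFb cells had 5 of the 9 genes higher and 3 lower, where 65.2% of all genes were called, 34.8% higher and 30.5% lower. The call of Tpm1 among the 5 was lost without vehicle sample 3 (adjusted p = 0.0601).

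In SB431542 cells the TGFb response of Acta2 and Tagln was called. Acta2 had 124, 112 and 101 FPKM in SB431542+TGFb cells, against 79.2, 67.7 and 69.2 FPKM in SB431542 cells, a log2 difference of 0.63 (SE 0.14, adjusted p = 0.0142). Tagln had 64.8, 57.4 and 51.6 FPKM in SB431542+TGFb cells, against 42.3, 31.2 and 32.9 FPKM in SB431542 cells, a log2 difference of 0.70 (SE 0.17, adjusted p = 0.02). The groups did not overlap in either gene, and their interactions of -0.28 (interval -0.71 to 0.15) and -0.47 (-0.97 to 0.03) were not called. Both calls were lost without SB431542+TGFb sample 1 or 2 or SB431542 sample 2 or 3 (adjusted p of 0.0531 to 0.0854 for Acta2 and 0.068 to 0.114 for Tagln). With the sample numbers as a replicate block, 5 of the 9 genes were called, Tpm1 and Actn1 being added. The interactions of Cald1 (-0.67), Tpm1 (-0.60), Actn1 (-0.41) and Tpm2 (0.34) were called.

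**Figure D3:**
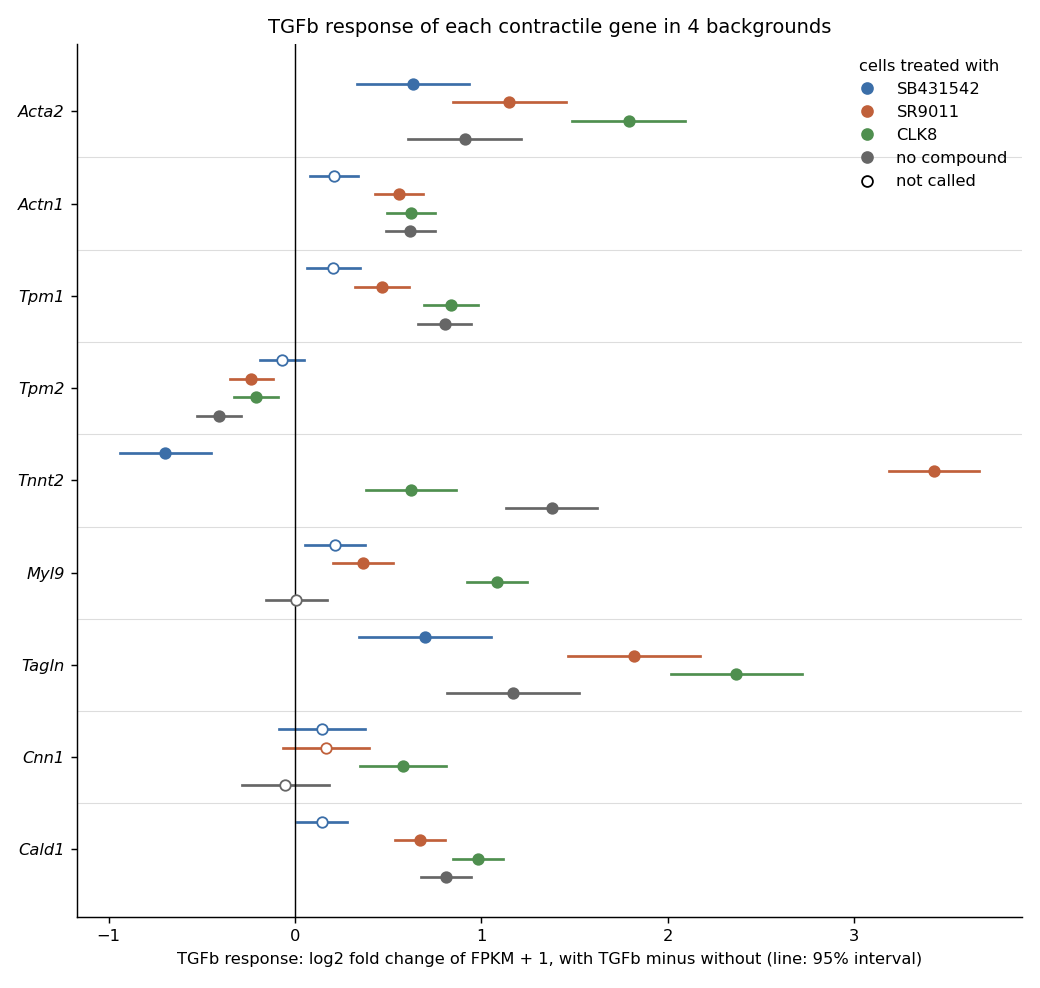
Response to TGFb of the 9 genes, as the log2 difference on the log2(FPKM + 1) scale with its 95% interval, in cells with SB431542, SR9011, CLK8 or no compound. The Tnnt2 response is -0.70 with SB431542, 3.43 with SR9011 and 1.38 with no compound, and that of Myl9 is 1.08 with CLK8 and 0.01 with no compound.

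The tropomyosin pair moved apart, and with Tpm3 and Tpm4, the other tropomyosin genes, this changed the make-up of the family. Tpm1 made up 49.0% ± 0.377 of the summed Tpm1 to Tpm4 FPKM in TGFb cells and 37.4% ± 1.04 in vehicle cells (SD, n = 3 each). Tpm2 made up 4.03% ± 0.272 in TGFb cells and 7.17% ± 0.242 in vehicle cells, while the summed level was 1340 ± 11.2 FPKM in TGFb cells and 1004 ± 17.1 FPKM in vehicle cells. None of these ranges overlapped. Tpm1 made up 40.4% ± 0.87 in CLK8+TGFb cells and 28.8% ± 2.34 in CLK8 cells, the lowest share of the 8 groups. Tpm2 made up 5.70% ± 0.088 in SR9011+TGFb cells and 8.10% ± 0.282 in SR9011 cells, its highest. In SB431542+TGFb cells Tpm1 made up 39.0% ± 1.03 and in SB431542 cells 35.9% ± 2.05, with overlapping ranges. The shares were not tested.

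**Figure D4:**
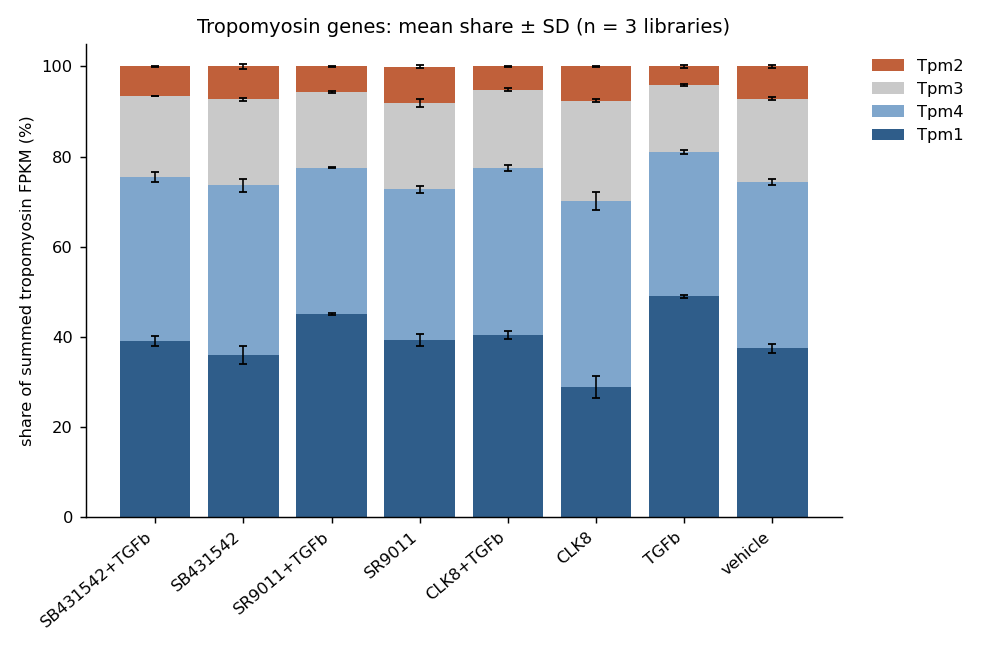
Share of the summed FPKM of Tpm1, Tpm2, Tpm3 and Tpm4 taken by each gene, in percent, as the mean of 3 libraries per group. The Tpm1 share is 49.0% in TGFb cells and 28.8% in CLK8 cells, and the Tpm2 share is between 4.03% and 8.10% in all groups.

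The order of the 8 groups differed between members. Acta2 was highest in SR9011+TGFb and TGFb cells, which overlapped, at 189 FPKM each. The 5 groups from SB431542+TGFb to SB431542 formed a chain in which neighbours overlapped, and CLK8 cells stood alone at the bottom at 30.9 ± 7.38 FPKM. Tagln was highest in TGFb cells alone, then came SR9011+TGFb, CLK8+TGFb, SB431542+TGFb and vehicle cells, each overlapping the next. Cald1 was highest in CLK8+TGFb, SR9011+TGFb and TGFb cells, in that order and without overlap. Myl9 and Cnn1 had vehicle, TGFb and both SB431542 groups at the top, and all SR9011 and CLK8 groups below them without overlap. Tpm2 had its 3 lowest means in CLK8+TGFb, TGFb and SR9011+TGFb cells.

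Patterns were set side by side as Pearson correlations of the 8 group means of log2(FPKM + 1), which share their libraries and are given as a description. The most alike pair of members was Myl9 and Cnn1 (r = 0.95, n = 8 groups), followed by Tpm1 and Tagln (0.95), Acta2 and Tpm1 (0.91) and Acta2 and Tagln (0.90). Tpm2 and Cald1 ran opposite to each other (r = -0.91). Among the 1864 or 1865 genes that spanned at least 1 on that scale, Acta2 was most like Lfng (0.95), Unc5b (0.94) and Uchl1 (0.93). Tagln was most like Igfbp7 (0.98), Ifitm10 (0.97) and Ahr (0.96), and Cnn1 most like Cd248 (0.98), Smpd3 (0.97) and Krt7 (0.96). Cald1 was most like Arntl, the gene of BMAL1 (r = 0.997), then Nfatc1 (0.99) and Msi2 (0.99). Actn1 was most like Col5a2 (0.99), Hal (0.99) and Ucp2 (0.99), and Tpm1 most like Uchl1 (0.95), Tagln and Pkp2. Tpm2 was most like Ddit4l (0.97), Id3 (0.96) and Tec (0.95), Myl9 most like Cnn1, Angptl7 (0.92) and Fmod (0.92), and Tnnt2 most like Slc6a6 (0.92), Acsbg1 (0.91) and Birc7 (0.90).

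Close paralogs of the members include the cytoplasmic actins and the other calponins. Of 12 tested, 6 rose and 3 fell with TGFb, where 20.5% of all genes were higher and 34.4% lower. The median log2 difference of the 12 was 0.13, against -0.05 over all genes. Actn3 fell by 1.01 and Myl12b by 0.62, while Cnn2 rose by 0.39. SR9011 and CLK8 without TGFb each lowered 8 of the 12, where 28.3% of all genes were lower with SR9011 and 13.6% with CLK8, and Actn3 fell by 1.49 in SR9011 cells and by 0.96 in CLK8 cells. The myosin motor and its regulators were mixed: of 13 tested, 2 rose and 2 fell with TGFb. Over all genes, 20.5% were higher and 34.4% lower in that comparison. Mylk, the kinase that switches on the myosin light chain, had 3.81 ± 0.132 FPKM in TGFb cells and 8.69 ± 0.285 FPKM in vehicle cells (SD, n = 3 each), a log2 difference of -1.01 (adjusted p = 8.12e-09), and Myh9, a non-muscle myosin heavy chain, rose by 0.43. Mylk was also lower in SR9011 cells (-0.97) and CLK8 cells (-0.80) than in vehicle cells.

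Of 21 tested genes for serum response factor and its cofactors and for other smooth muscle or focal adhesion proteins, 9 rose and 6 fell with TGFb. Over all genes, 20.5% were higher and 34.4% lower. The median log2 difference of the 21 was 0.02, against -0.05 over all genes. Csrp2 and Pdlim7, encoding LIM-domain proteins of the cytoskeleton, rose by 1.24 and 1.04, and Fhl1, encoding another, fell by 1.78. SR9011 lowered 15 of the 21 and raised 3, where 28.3% of all genes were lower and 40.7% higher, with Filip1l at -1.27, the palladin gene Palld at -0.99 and Csrp2 at -0.96. CLK8 lowered 12 and raised 3, where 13.6% of all genes were lower and 30.3% higher, with the vinculin gene Vcl at -0.77 and Pdlim7 at -0.64, while Fhl1 rose by 0.66. SB431542 lowered 4 and raised 2, where 5.05% of all genes were lower and 11.9% higher.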

How the data were processed

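RNA from 24 EMS404 cultures was sequenced, and 2 purification kits were used depending on yield, per the labels' protocols. The labels do not tie kits to cultures. The submitters' processing notes name HISAT2 2.0.4, Bowtie2 2.2.5, RSEM, DESeq2 and the mm10 build. The authors deposited FPKM with 2 decimals for 16620 lines. Of its 16612 identifiers, 8 stood on 2 lines, and those 16 lines were left out. Read counts are not known. FPKM sums were 503920 to 610024 per library.

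Genes with at least 1 FPKM in at least 3 libraries (11297) were tested with limma 3.58.1 in R 4.3.3 on log2(FPKM + 1), all 8 groups in 1 model with trended, robust moderation, 16 comparisons, and p-values adjusted by Benjamini-Hochberg within each over all genes tested. Groups came from the labels. The p-values cover the spread between 3 biological samples of 1 line. Same-numbered samples deviated together in SB431542+TGFb and SB431542 cells (r = 0.415, 0.208 and 0.117 over genes), so these were also fitted with the sample number as a block. The same held for SB431542+TGFb and CLK8+TGFb cells (0.275, 0.137 and 0.129), which were not compared. The pairing comes from the data, the labels not stating it. All 9 members are named, with up to 3 called genes of largest change per related list and comparison and the 3 genes most alike in pattern. The members and lists were chosen with earlier results of these data known. The alternatives were other pseudocounts, filters, scalings and models, and leaving out each library.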

Additional observations from a re-analysis of the deposited data

Results flagged for a closer look

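Of 27 tests of whether a member's response to TGFb differed with a compound, 14 passed the threshold by limma's test of the interaction, on the log2(FPKM + 1) scale. Over all genes, called interactions made up 34.3% with SB431542, 31.9% with SR9011 and 7.97% with CLK8. With SB431542 the response was lower for Tnnt2 (-2.07), Cald1 (-0.67), Tpm1 (-0.60) and Actn1 (-0.41) and higher for Tpm2 (0.34). With SR9011 it was higher for Tnnt2 (2.05), Tagln (0.65) and Myl9 (0.36) and lower for Tpm1 (-0.34). With CLK8 it was higher for Tagln (1.20), Myl9 (1.08), Acta2 (0.88) and Cnn1 (0.63) and lower for Tnnt2 (-0.76). The Tagln call with SR9011 was lost in 10 of the 12 fits that left out 1 library. Those of Myl9 with SR9011 and of Cnn1 with CLK8 were each lost in 1 of 12. Without SR9011 sample 1 the SR9011 interactions of Cald1 and Tpm2 were called as well. Groups of 3 libraries are too small for a test of single outlying libraries.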

How the results depend on the processing

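Over 2306 recomputed member values, 2220 kept their side of the threshold, 58 lost the call and 28 gained it. Where either fit called the gene, 0 changed sign, and sign changes between uncalled fits were not counted. Pseudocounts of 0.5 and 0.1, a filter at 5 FPKM and moderation without a trend changed no member's call. That filter leaves out Cnn1, and Tnnt2 passes it only through its SR9011+TGFb libraries, so it is no check on either gene. The number of members called for SB431542 against vehicle was 5, and 2 to 6 when 1 library was left out. For SB431542+TGFb against SB431542 it was 3, against 5 after quantile normalization, 5 with the replicate block and 1 to 5 when 1 library was left out. Over all genes that comparison called 493, and 199 to 244 without SB431542 sample 3 or SB431542+TGFb sample 1 or 2. SB431542+TGFb against vehicle called 0 members, 1 when the compared groups were fitted alone, and 395 genes in all, or 180 to 240 without vehicle sample 1, 2 or 3 or SB431542+TGFb sample 2 or 3. For the SR9011 interaction 4 members were called, and 2 to 5 when 1 library was left out. In the other comparisons, whose groups did not all deviate together by number, the block added Tpm1 to SB431542 against vehicle and to CLK8+TGFb against vehicle, and Tagln to SR9011+TGFb against vehicle and to the SB431542 interaction, and took no call away. The causes were not tested. Unknown read counts limit Cnn1 and Tnnt2, whose lowest values, 0.09 and 0.13 FPKM, carry 2 decimals.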

Other observations

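Besides Tnnt2, 2 partners in the troponin complex were called. Tnni2, which encodes the inhibitory troponin I of fast skeletal muscle, had 2.72 ± 0.713 FPKM in TGFb cells and 0.633 ± 0.133 FPKM in vehicle cells (SD, n = 3 each), a log2 difference of 1.17 (limma adjusted p = 5.64e-08). Tnnc1, which encodes the calcium-binding troponin C of slow and cardiac muscle, had 1.65 ± 0.216 FPKM in TGFb cells and 0.53 ± 0.281 FPKM in vehicle cells, a log2 difference of 0.81 (adjusted p = 0.000305). Of 6 striated muscle genes tested, 2 rose and 1 fell with TGFb, where 20.5% of all genes were higher and 34.4% lower. Tnni2 was lower in SR9011+TGFb cells, at 0.907 ± 0.211 FPKM, than in TGFb cells, a log2 difference of -0.95 (adjusted p = 9.79e-07), whereas Tnnt2 was higher there.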
